A study of Sus scrofa with 12 samples.

Results

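Muscle atrophy and autophagy genes were described from 10 probe sets of 6 genes, out of 23999 probe sets tested and 6765 genes named in post mortem pig muscle. The members were all probe sets to which the platform annotation gives a single symbol among 8 genes: FBXO32, TRIM63, FOXO1, FOXO3, SQSTM1, MAP1LC3B, GABARAPL1 and BNIP3. FBXO32, FOXO1, FOXO3 and MAP1LC3B had 2 probe sets each, and SQSTM1 and GABARAPL1 had 1 each. For TRIM63 the annotation lists a probe set that it also assigns to TARDBP, and it gives BNIP3 to none, so neither gene is described here. The probe set of a gene with the highest mean over the 12 arrays is called its leading probe set.

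The arrays measured RNA of the semimembranosus muscle, taken from the left hind leg of 3 female commercial hybrid pigs of about 160 kg, raised on 1 farm and slaughtered at 1 abattoir after CO2 stunning. A portion of 3 to 5 g was taken 20 min after death, and further portions of the same muscle followed at 2 h, 6 h and 24 h, while the carcass passed through the cold chain, so there are 4 times with 3 pigs each. The pigs carried no stated genetic change and received no treatment other than slaughter, their age is not stated, and time after death and cooling of the carcass cannot be told apart. Values are log2 intensities after RMA, which gives every array nearly the same distribution (array medians 5.89 to 5.94). Each probe set responds to its own probes, so levels are compared between arrays and not between probe sets.

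In living skeletal muscle, fasting, disuse and glucocorticoids lower insulin and AKT signalling, and the FOXO transcription factors then enter the nucleus and switch on ubiquitin ligases and autophagy genes. The ligases mark muscle proteins for the proteasome. Autophagy encloses cytoplasm and organelles in membranes decorated with lipid-linked ATG8 proteins, a family that includes LC3B and GABARAPL1, and delivers them to the lysosome. Most of this knowledge comes from mice and cultured cells. The comparisons below address whether the transcripts of this programme shifted in pig muscle during the first day after death.

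The tissue label was checked first. Of 11 muscle fibre markers, 8 had a probe set of 1 symbol, among them the creatine kinase gene CKM and the slow myosin gene MYH7, and their mean lay between 14.15 and 14.20 on all 12 arrays. Markers of other cells differed between arrays. The mean of 7 macrophage and leukocyte markers at the 4 times, in order, was 6.68, 6.06, 6.21 and 5.43 in pig 3, 6.38, 6.49, 6.52 and 6.03 in pig 1 and 6.08, 6.20, 6.34 and 5.81 in pig 2. This mean was lower at 24 h than at 20 min in every pig. Of the 7 markers, 4 were lower and 1 higher at an unadjusted p under 0.05, where 6.67% and 6.41% of all probe sets were. After adjustment 0 passed, and PTPRC, which marks all leukocytes, had a mean of 3.98. The mean of 6 fibroblast and matrix markers in pig 3 was 9.99 at 20 min and between 9.44 and 9.48 later. The 3′ minus 5′ signal of the EF1A control probe sets, a sign of RNA integrity, was 0.86, 0.62 and 0.70 at 24 h and 0.48, 0.63 and 0.23 at 20 min in pigs 1, 2 and 3. The same difference for the pig actin control was 2.46, 2.00 and 2.28 at 24 h and 2.37, 2.23 and 2.33 at 20 min. The 2 h array of pig 2 had the highest of all 12 values for both, 1.11 for EF1A and 2.54 for actin. The part of these values in the results below was not tested. Member values are therefore given by pig, and the results were also computed with the 20 min array of pig 3, or the 2 h array of pig 2, left out. In bulk tissue, fewer cells of a type and less RNA per cell cannot be told apart.

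No member passed at any time. In limma's F test over the 4 times with pig as a block, 0 of 10 member probe sets passed at an adjusted p under 0.05 and 0 had an unadjusted p under 0.05, where 0.00417% and 8.22% of all probe sets did. The smallest adjusted p among the members was 0.67. In the comparison of 24 h with 20 min 0 members passed, beside 0.00417% of all probe sets, and 0 had an unadjusted p under 0.05, beside 13.1%. The same 2 counts were 0 and 0 at 2 h (0% and 7.95% of all probe sets) and 0 and 0 at 6 h (0% and 8.83%). Between neighbouring later times they were also 0 and 0, for 6 h against 2 h (0% and 2.26%) and for 24 h against 6 h (0% and 8.08%). The 3 comparisons with 20 min share the 20 min arrays.

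The intervals show how large a change these arrays leave room for. In each of the 5 comparisons, the 95% interval of all 10 member probe sets lay within 1.5-fold in either direction, as it did for 93.3% of all probe sets at 24 h against 20 min and for 94.7% to 97.8% in the other comparisons. The widest bounds against 20 min were 1.41-fold higher at 24 h, for the second FBXO32 probe set, and 0.745-fold at 2 h, for the same probe set. The intervals are per comparison and are not adjusted for the number of members. The second FOXO1 and second FOXO3 probe sets, with means of 5.06 and 4.36, are among the dimmest 40% of probe sets. Signal over background is unknown here, so their narrow intervals need not bound a change of the transcript. The median log2 change of the 10 probe sets at 24 h was 0.08, against 0.0082 over all probe sets, and their median size of change was 0.13, against 0.10.

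**Figure D1:**
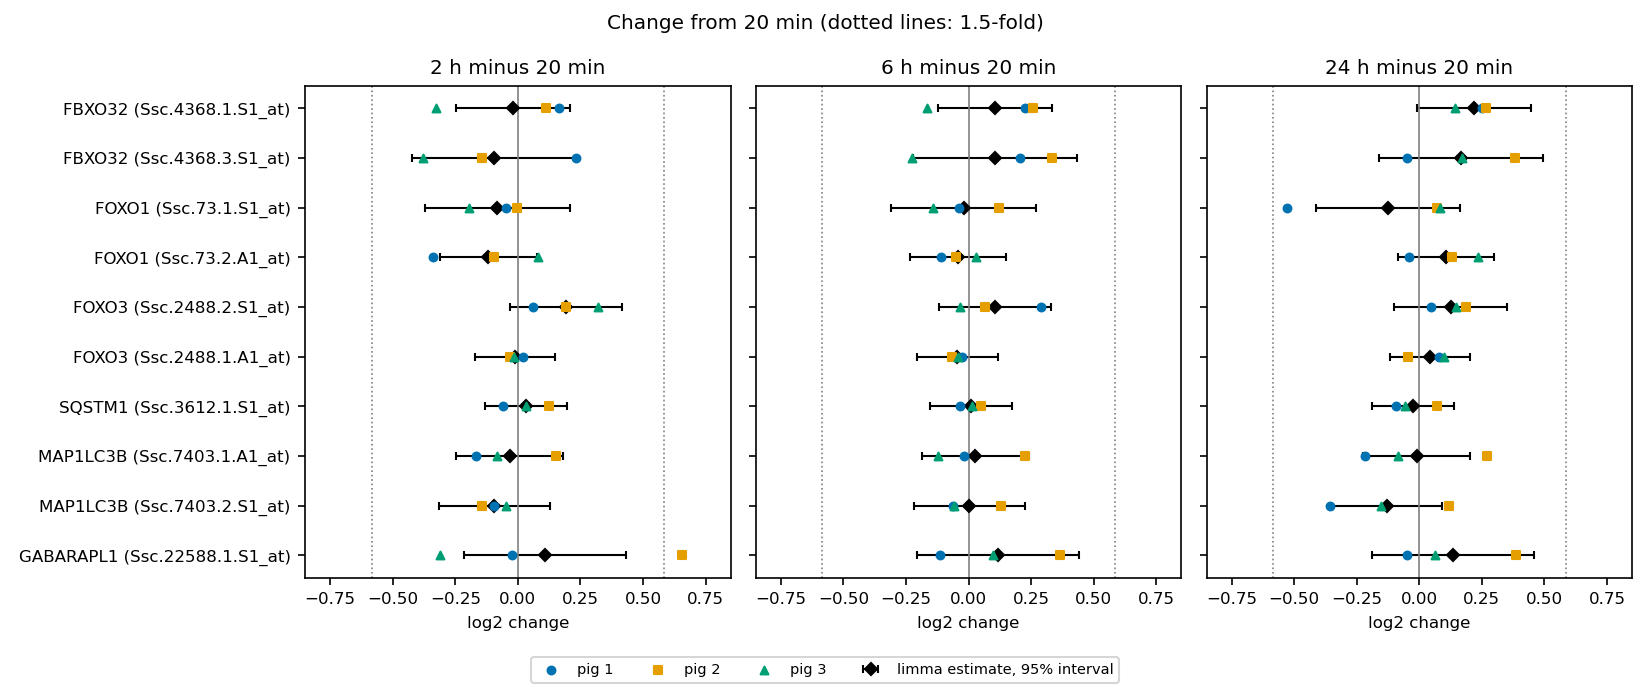
Log2 change of the 10 member probe sets at 2 h, 6 h and 24 h minus 20 min. Diamonds are the limma estimates with 95% intervals, coloured symbols are the changes of pigs 1, 2 and 3, and dotted lines mark 1.5-fold. Every interval includes 0 and stays inside the dotted lines, and the changes of the 3 pigs lie on both sides of 0 for most probe sets.

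FBXO32, which encodes atrogin-1, the substrate-binding part of a muscle ubiquitin ligase and a standard marker of atrophy, had the smallest adjusted p of the members at 24 h. Its leading probe set (gene ID 733657) had log2 values of 13.10, 12.75 and 13.04 at 20 min, 13.26, 12.86 and 12.71 at 2 h, 13.32, 13.01 and 12.87 at 6 h and 13.35, 13.02 and 13.18 at 24 h in pigs 1, 2 and 3. All 3 pigs were higher at 24 h than at 20 min, but the values of the 2 times overlapped, because pig 2 at 24 h was below pigs 1 and 3 at 20 min. The mean was 13.18 ± 0.16 at 24 h and 12.96 ± 0.18 at 20 min (SD, n = 3 each), a difference of 0.22 on the log2 scale (SE 0.10, limma adjusted p = 0.393), or 1.16-fold with a 95% interval of 0.994 to 1.36. Without the 20 min array of pig 3 the log2 change was 0.33 (adjusted p = 0.538). Of the members, 2 of 10 were higher in all 3 pigs at 24 h, FBXO32 and FOXO3, each by its leading probe set, where 17.8% of all probe sets were. None of the 10 was lower in all 3 pigs (16.7% of all probe sets), and the values at 24 h and 20 min did not separate for any of them (6.99% of all probe sets higher and 4.72% lower).

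The second FBXO32 probe set had values of 12.25, 11.56 and 12.03 at 20 min, 12.48, 11.42 and 11.65 at 2 h, 12.46, 11.90 and 11.80 at 6 h and 12.20, 11.95 and 12.20 at 24 h. Here the changes at 24 h were -0.05, 0.38 and 0.17 in pigs 1, 2 and 3, so the sign differed between pigs, and the mean log2 change was 0.17 (SE 0.15, limma adjusted p = 0.646), and was 0.061 without pig 2 but 0.35 when the 24 h array of pig 1 was left out. At 2 h the changes of the leading and the second probe set were -0.33 and -0.38 in pig 3, but 0.16 and 0.23 in pig 1. The 2 h array of pig 3 also had lower macrophage and fibroblast marker means than its 20 min array (changes of -0.62 and -0.54). Both means were lower in pig 3 at 6 h (-0.47 and -0.55) and 24 h (-1.26 and -0.52) as well. At 6 h and 24 h the leading FBXO32 probe set changed by -0.17 and 0.14 in pig 3. The part of these markers in the FBXO32 values was not tested. After subtracting each pig's mean, the probe sets correlated with r = 0.79 over the 12 arrays (Spearman 0.71, and r = 0.65 without the 2 arrays farthest from the median), a description of arrays that share pigs.

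FOXO1 and FOXO3, the transcription factors that turn on FBXO32 in mouse muscle, did not pass at any time either. The leading FOXO1 probe set (gene ID 397077) read 10.27, 10.16 and 10.21 at 20 min, 10.22, 10.16 and 10.02 at 2 h, 10.23, 10.28 and 10.07 at 6 h and 9.74, 10.23 and 10.30 at 24 h in pigs 1, 2 and 3. A single array, the 24 h array of pig 1, stood below the others, and the remaining 11 lay between 10.02 and 10.30. The log2 change at 24 h was -0.13 (SE 0.13, limma adjusted p = 0.703), with -0.53, 0.07 and 0.08 in the 3 pigs, and without that array it was 0.080. The second FOXO1 probe set, among the dimmest 40% of probe sets, read between 4.90 and 5.23. Its 3 values at 24 h, 5.15 to 5.19, all lay above its 3 values at 6 h, 4.95 to 5.12, without passing (log2 change 0.15, SE 0.088, limma adjusted p = 0.706). This was the 1 member whose groups did not overlap at these times in the higher direction, where 6.15% of all probe sets did not.

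The leading FOXO3 probe set (gene ID 733621) had values of 6.56, 6.73 and 6.56 at 20 min, 6.63, 6.92 and 6.88 at 2 h, 6.85, 6.79 and 6.52 at 6 h and 6.61, 6.91 and 6.70 at 24 h. All 3 pigs were higher at 2 h than at 20 min, as 13.8% of all probe sets were, with overlapping values and a difference of 0.19 on the log2 scale (SE 0.10, limma adjusted p = 0.653). At 24 h the change was 0.13 (SE 0.10, adjusted p = 0.616), again higher in 3 of 3 pigs. At 2 h, 2 of 10 members were lower in all 3 pigs, the leading FOXO1 and the second MAP1LC3B probe set, where 14% of all probe sets were. The second FOXO3 probe set, also among the dimmest 40%, stayed between 4.22 and 4.49. Neither pair of FOXO probe sets tracked each other: the pig-centred correlation was -0.04 for FOXO1 (Spearman 0.26, and 0.29 without the 2 farthest arrays) and -0.14 for FOXO3 (Spearman 0, and 0.32).

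SQSTM1 encodes the receptor that binds ubiquitinated cargo and links it to LC3 on the autophagosome membrane, and it had the narrowest range of the leading probe sets. Its probe set (gene ID 100518718) read 12.55, 12.43 and 12.34 at 20 min, 12.49, 12.56 and 12.38 at 2 h, 12.52, 12.48 and 12.36 at 6 h and 12.46, 12.51 and 12.29 at 24 h in pigs 1, 2 and 3. All 12 values lay within 0.27 of each other, with pig 3 lowest at each time. The log2 change at 24 h was -0.03 (SE 0.075, limma adjusted p = 0.901), with a 95% interval of -0.19 to 0.14, and 0.0063 when the arrays were centred on their brightest 10% of probe sets.

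MAP1LC3B encodes LC3B, the ATG8 protein whose lipid-linked form is the usual marker of autophagosomes. Its leading probe set (gene ID 100462754) had values of 11.35, 11.33 and 11.39 at 20 min, 11.18, 11.48 and 11.31 at 2 h, 11.33, 11.55 and 11.27 at 6 h and 11.13, 11.60 and 11.31 at 24 h. The pigs lay close together at 20 min (SD 0.033) and further apart at 24 h (SD 0.24), with changes of -0.22, 0.27 and -0.08 in pigs 1, 2 and 3. The mean log2 change was -0.01 (SE 0.097, limma adjusted p = 0.971), and 0.022 after centring on the brightest 10% or 0.013 after cyclic loess. The second probe set showed the same order of pigs in that change, -0.36, 0.12 and -0.15, with a mean of -0.13 (SE 0.10, adjusted p = 0.597) that was -0.25 without pig 2 and -0.018 without pig 1. It correlated with the first at r = 0.66 after centring on pigs (Spearman 0.73, and 0.74 without the 2 farthest arrays). The difference in spread between times was not tested.

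GABARAPL1 encodes another ATG8 protein and is a FOXO3 target in mouse muscle. Its probe set (gene ID 100462751) varied most, with 8.37, 8.21 and 7.80 at 20 min, 8.35, 8.86 and 7.49 at 2 h, 8.26, 8.57 and 7.90 at 6 h and 8.32, 8.59 and 7.86 at 24 h in pigs 1, 2 and 3. Pig 3 was lowest at every time, and the 12 values spanned 1.37 on the log2 scale. At 2 h pigs 1, 2 and 3 differed from their own 20 min values by -0.02, 0.66 and -0.31. The 2 h array of pig 2, the highest of the 12 here, is the one with the highest 3′ minus 5′ values of EF1A and actin; their part in its value was not tested. The change at 2 h was -0.083 without that array, -0.17 without pig 2 and 0.32 without pig 3. The log2 change was 0.11 at 2 h, 0.12 at 6 h and 0.13 at 24 h (SE 0.15 each, limma adjusted p = 0.859, 0.837 and 0.716). At 24 h it was 0.0081 without pig 2 and 0.23 without pig 1.

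**Figure D2:**
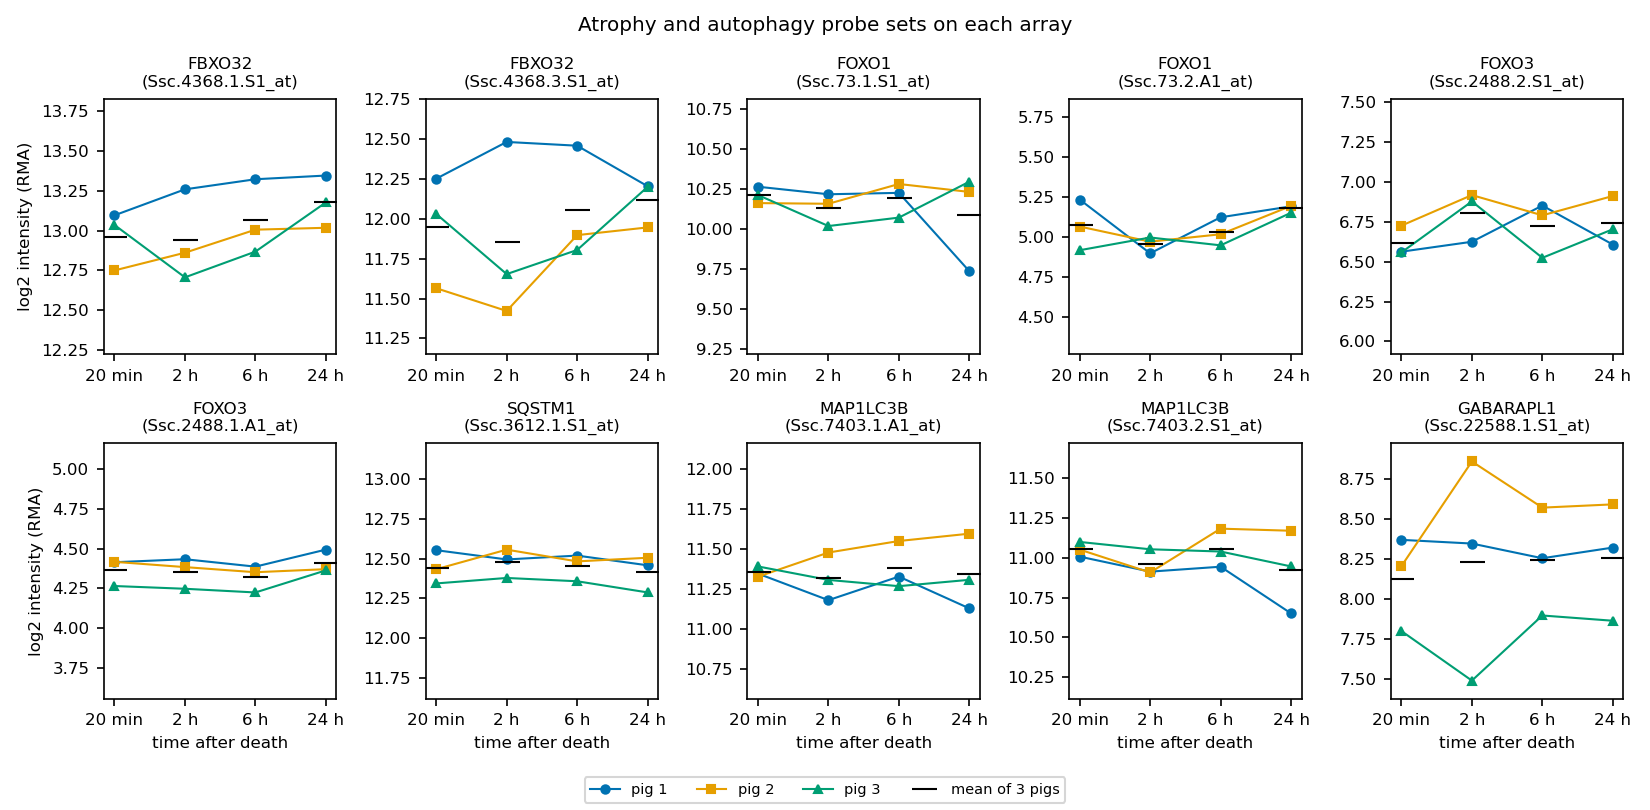
Log2 intensity of the 10 member probe sets on each array, by time after death (categories, not to scale), with 1 line per pig and a black dash for the mean of 3 pigs. Every panel spans the same number of log2 units around its own centre, so slopes and gaps can be compared between panels but levels cannot. The lines of SQSTM1 are nearly flat, the pigs stay apart for GABARAPL1, and the low FOXO1 value is the 24 h array of pig 1.

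For most members the animals differed more than the times did. The share of the sum of squares over the 12 arrays that lay between pigs exceeded the share between times for 8 of 10 member probe sets, as it did for 59.1% of all probe sets; the exceptions were the 2 FOXO1 probe sets. GABARAPL1 had 80.3% of its spread between pigs and 1.99% between times, SQSTM1 79.6% and 6.48%, and the leading FBXO32 probe set 57.8% and 21.6%. The medians over all probe sets were 31.8% and 21.0%. Pig 3 was the lowest of the 3 at all 4 times for GABARAPL1, SQSTM1 and the dim FOXO3 probe set, 3 of 10, where this held for 5.95% of all probe sets. Pig 1 was the highest at all 4 times for both FBXO32 probe sets, 2 of 10, where this held for 6.99%. Pigs 1 and 2 were the lowest at all 4 times for 0 of 10 each, where 6.22% and 7% of all probe sets were. Pigs 2 and 3 were the highest for 0 of 10 each, against 6% and 5.75%. The 4 arrays of a pig come from 1 muscle of 1 animal and are no replicates of a difference between pigs, so it was not tested.

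**Figure D3:**
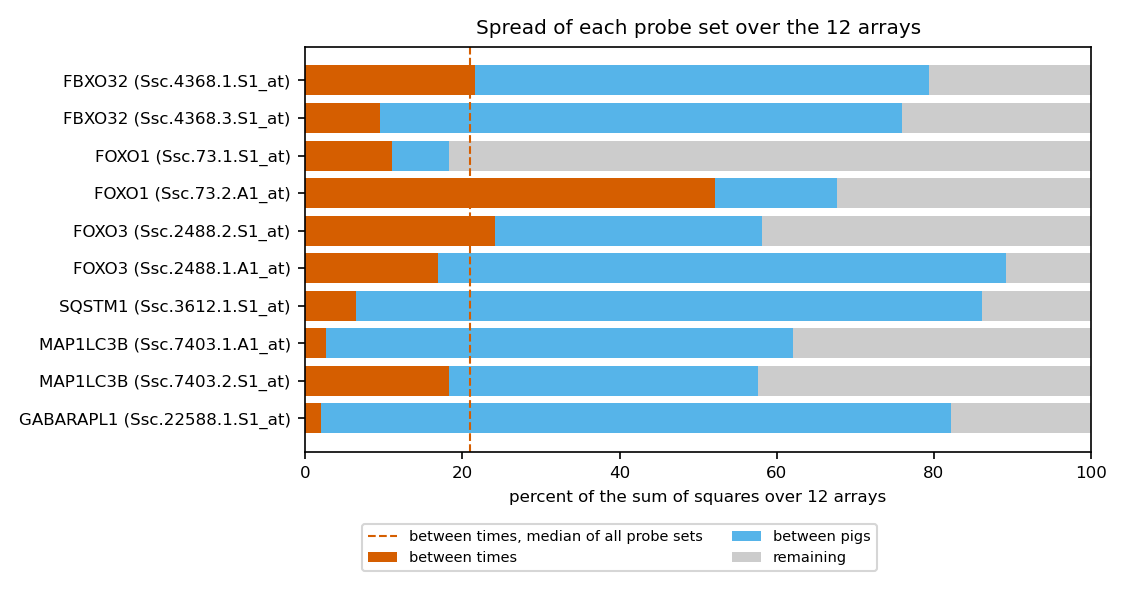
Share of the sum of squares over the 12 arrays that lies between times, between pigs or in neither, for each member probe set, as stacked bars. The dashed line is the median share between times over all probe sets, 21.0%; GABARAPL1, at 1.99%, lies furthest below it, and the dim FOXO1 probe set, at 52.2%, furthest above.

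The members' values within pigs were compared over the 12 arrays. After subtracting each pig's mean, the leading probe sets of FBXO32 and FOXO1 correlated with r = 0.20 (-0.13 without the 2 farthest arrays) and those of FBXO32 and FOXO3 with r = 0.0011 (0.42 without them). The second FBXO32 probe set had r = 0.61 with the leading FOXO1 (0.59 without the 2 farthest arrays) and -0.02 with the leading FOXO3 (0.59), so these values depended on the probe set and on single arrays. Among leading probe sets, FOXO1 and MAP1LC3B had r = 0.59 (0.50 without the 2 farthest arrays), SQSTM1 and MAP1LC3B 0.56 (0.40), and FBXO32 and SQSTM1 -0.44 (-0.15). Genes with the most similar pig-centred values were sought among 4897 others with a leading probe set at or above the median level. For FBXO32 they were KCTD20 (r = 0.89), CEBPD, a glucocorticoid-responsive transcription factor gene (r = 0.87), and MECOM (r = 0.87). Without the 2 farthest arrays these had r = 0.75, 0.86 and 0.79. For SQSTM1 they were the ubiquitin-conjugating enzyme gene UBE2H (r = 0.93), the nuclear receptor gene RORA (r = 0.89) and MTPN (r = 0.88). Their values without the 2 farthest arrays were 0.89, 0.87 and 0.87. For FOXO1 they were DCTN4 (r = 0.89), UBFD1 (r = 0.88) and the proteasome subunit gene PSMD6 (r = 0.88), which without the 2 farthest arrays had r = 0.62, 0.62 and 0.76. The nearest gene was NAT10 for FOXO3 (r = 0.89), GLMP for MAP1LC3B (r = 0.89) and METTL13 for GABARAPL1 (r = 0.91). Without the 2 farthest arrays these had r = 0.73, 0.90 and 0.76. All these correlations take in deviations of single arrays as well as differences between times. They describe arrays that share pigs and times, and those with other genes were picked as the highest of many.

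The wider programme gave few single genes and none that passed. Of 138 further symbols in 7 lists, 91 had a probe set of 1 symbol. At 24 h against 20 min, 4 of these 91 were higher and 6 lower at an unadjusted p under 0.05, or 11% against 13.1% of all probe sets (6.41% higher and 6.67% lower), and 0 passed in limma (smallest adjusted p = 0.21). The list genes are counted by their leading probe set, but the background takes in all probe sets, also dim ones and those without a symbol. The shares are therefore of unlike sets, and the counts of the single lists below stand beside the same shares of all probe sets. The median log2 change of the 91 genes was 0.02. At 2 h 4 were higher and 4 lower (8.79%), and at 6 h 4 were higher and 1 lower (5.49%), each again with 0 passing.

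Upstream of FOXO, 18 of 28 insulin, AKT, mTOR and AMPK signalling genes were on the array, with 1 higher and 1 lower at 24 h at unadjusted p under 0.05. PRKAA2, which encodes the main catalytic AMPK subunit of muscle, had a log2 change of -0.33 ± 0.090 (limma adjusted p = 0.222), lower in 3 of 3 pigs. Here and for the list genes below, ± is the SD of the changes of 3 pigs and not the SE of the fit. AKT1, whose kinase keeps FOXO proteins out of the nucleus, had a change of 0.22 ± 0.12 (adjusted p = 0.318), higher in 3 of 3. The coactivator gene PPARGC1A had -1.07, -0.29 and 0.38 in pigs 1, 2 and 3, and the mTOR activator gene RHEB had a mean change of -0.058 ± 0.13.

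Among 16 of 21 glucocorticoid and starvation response genes and FOXO targets, 0 were higher and 2 lower at unadjusted p under 0.05. Of all probe sets, 6.41% were higher and 6.67% lower. The growth arrest gene GADD45A had a log2 change of -0.67 ± 0.20 (limma adjusted p = 0.21) and the transcription factor gene CEBPB one of -0.26 ± 0.24 (adjusted p = 0.349), both lower in 3 of 3 pigs; without pig 3 the change of CEBPB was -0.12. The 2 brightest, PDK4, whose kinase spares glucose during fasting, and TXNIP, which restrains glucose uptake, had changes of 0.028 ± 0.092 and -0.053 ± 0.27. Of 10 of 17 other ubiquitin ligases and related genes, 2 were higher and 1 lower, beside the same shares of all probe sets. FBXO21, a FOXO-dependent ligase gene in mouse muscle, had 0.27 ± 0.23 (limma SE 0.10, adjusted p = 0.314). TRIM55, a relative of TRIM63 at the sarcomere, had -0.27 ± 0.015 (limma SE 0.11, adjusted p = 0.358). Each had the same sign in all 3 pigs. The other gene counted as higher, MUL1, had changes of both signs. ZFAND5 and UBE2B, the brightest of this list, had changes of -0.018 ± 0.14 and 0.083 ± 0.064.

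Of the autophagy machinery itself, 8 of 19 initiation and phagophore genes were on the array and 0 had an unadjusted p under 0.05 at 24 h, with RB1CC1, a subunit of the initiating kinase complex, at 0.14 ± 0.15 and WIPI1, which binds the growing membrane, at 0.015 ± 0.18. Of 14 other ATG8 and conjugation genes 10 were measured, and 8 of these had a lower mean at 24 h, with a list median of -0.04; 48% of all probe sets had a lower mean. ATG7, which activates ATG8 proteins for lipid linkage, was the 1 with an unadjusted p under 0.05, with -0.35 ± 0.12 (limma adjusted p = 0.248) and lower in 3 of 3 pigs. GABARAP and GABARAPL2, relatives of GABARAPL1, had 0.10 ± 0.065 and -0.031 ± 0.065.

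Other cargo receptor, mitophagy and BCL2 family genes gave 0 of 12 measured at unadjusted p under 0.05, including the mitophagy kinase gene PINK1 (0.19 ± 0.056, higher in 3 of 3 pigs, limma adjusted p = 0.386) and the mitochondrial channel gene VDAC1 (0.065 ± 0.073). Among 17 of 22 fusion and lysosome genes, 1 was higher and 1 lower. The lysosomal calcium channel gene MCOLN1 had 0.21 ± 0.15 (adjusted p = 0.349) and the proton pump accessory gene ATP6AP2 -0.18 ± 0.026 (adjusted p = 0.376), each with the same sign in 3 pigs. The brightest of that list, the lysosomal membrane gene LAMP2 and the fusion GTPase gene RAB7A, had 0.20 ± 0.18 and 0.022 ± 0.071.

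**Figure D4:**
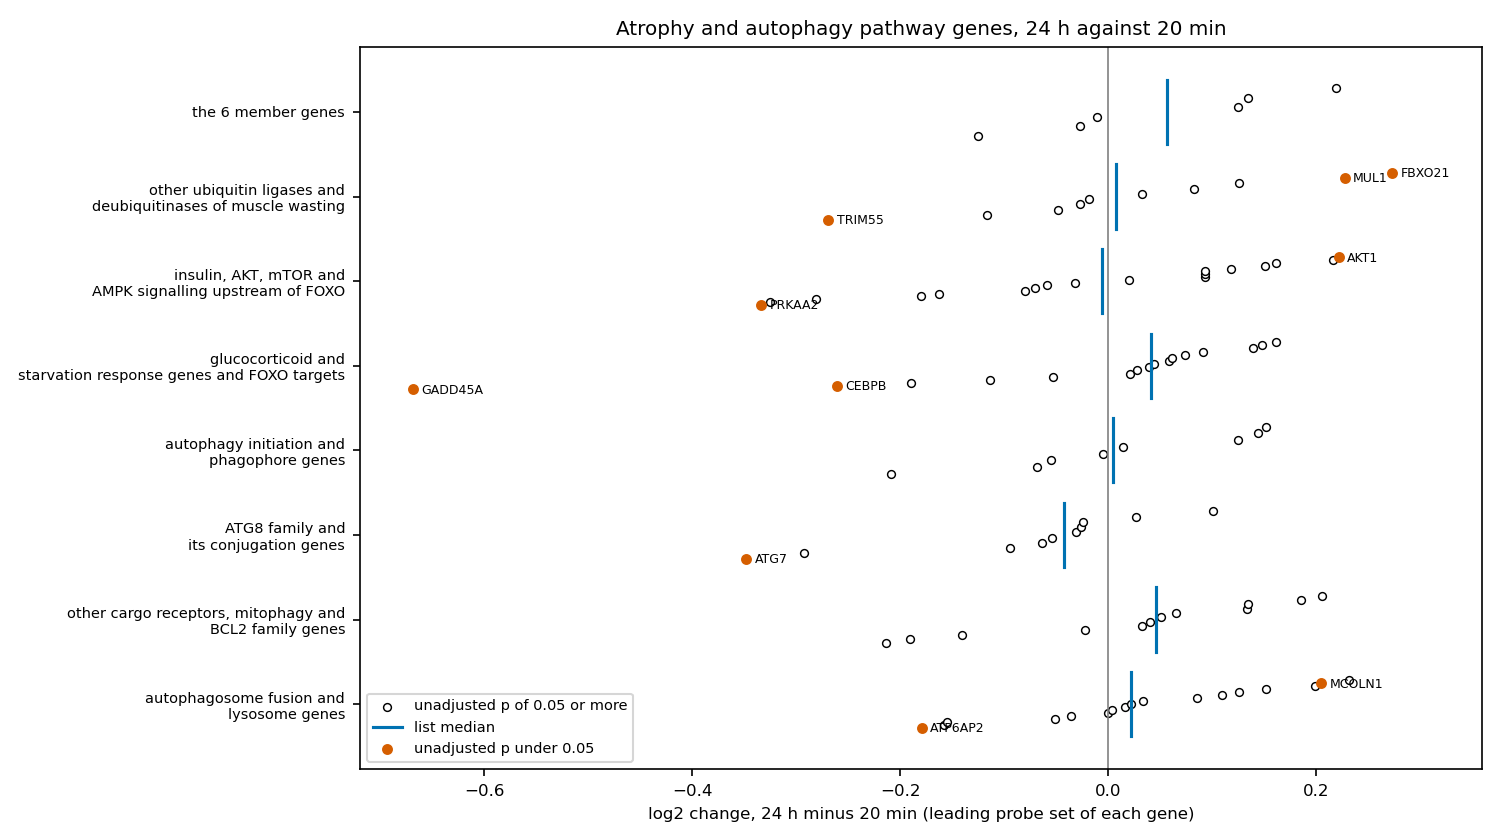
Log2 change at 24 h minus 20 min of the leading probe set of each of the 6 member genes and 91 further genes of 7 lists, 1 point per gene. Filled points have an unadjusted p under 0.05, open points do not, and blue bars are list medians, all between -0.04 and 0.06. GADD45A, at -0.67, lies furthest out; no point passed after adjustment over all probe sets.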

How the data were processed

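The log2 probe set intensities of 12 arrays were used as the authors deposited them. The submitters' processing notes name RMA and the affy package, without a version or parameters. RMA quantile-normalises, so a shift shared by all transcripts would not show. Of 24123 probe sets, 124 controls were left out and the other 23999 were tested with no filter on level. Signal over background is unknown here, and 3 pigs limit the precision.

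Gene symbols are those of an older platform annotation: 10099 probe sets have 1 symbol, 198 several and 13826 none here. All 6 member genes matched the Sscrofa11.1 RefSeq table by gene ID. The array names no build, so no coordinates are given.

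Times and pig numbers came from the sample titles. In limma 3.58.1 (R 4.3.3) a single model was fitted to the 12 arrays with a mean per time and a fixed effect per pig (6 residual and 5.67 prior degrees of freedom). Its two-sided p-values were adjusted by Benjamini-Hochberg over all probe sets of a comparison, at a threshold of 0.05. The pigs pair the arrays, as the series' design text says. After the mean of each time was subtracted, arrays of 1 pig correlated at 0.409 to 0.656 and arrays of different pigs at -0.634 to -0.0386. Subtracting a mean of 3 pigs itself pulls the values of different pigs below 0, so their negative sign is no result. The fit was also run on simulated data, and the outcome of that run is not reported here. From each list, the genes named are up to 3 with an unadjusted p under 0.05 at 24 h and the same sign in 3 pigs, and the 2 with the highest mean. For likeness, they are the 3 genes of highest pig-centred correlation. Members, lists and tests were chosen with earlier results of these data known.

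Alternatives were no block, pig as a random block (statmod 1.5.0), removal of the dimmest 40%, cyclic loess, centring on the brightest 10%, array weights, a robust prior with a trend, fits to only the 2 times compared and each pig left out. Leaving out each of 3 single arrays was added after seeing the data.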

Additional observations from a re-analysis of the deposited data

How the results depend on the processing

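No member probe set passed at an adjusted p under 0.05 under any of the 14 alternatives, which gave 690 values for 50 changes (smallest adjusted p 0.296 in limma); 636 kept their sign, and the 54 that did not were at most 0.19 in size. The 23 pathway genes named gave 322 values, of which 309 kept their sign, with a smallest adjusted p of 0.127. Where a sign or count differed, the cause was not tested. Without the replicate block, and with pig as a random replicate block, 0 probe sets passed at 24 h against 20 min and 0 in the F test, where 1 passed in each with the block; the block changed no call of a member. The F test also had 0 without the dimmest 40% and with cyclic loess. With array weights 1 probe set passed at 6 h against 20 min. With only the arrays of the 2 times, 0 passed at 24 h against 20 min and 4 at 24 h against 6 h. For 24 h against 20 min, 1 of 10 members, the leading FBXO32 probe set, had an unadjusted p under 0.05 in some settings. These were centring on the brightest 10%, a trended and robust prior, array weights and only the 2 times. In the main fit 13.1% of all probe sets had one, and the shares under these settings are not given here. With array weights the change at 2 h against 20 min was 0.021 and 0.033 for the leading and second FBXO32 probe sets, 0.014 for FOXO1 and 0.016 for MAP1LC3B (leading probe sets). It was 0.041 for FOXO1 at 6 h against 20 min, 0.045 for MAP1LC3B at 24 h against 20 min, -0.022 for FOXO3 at 24 h against 6 h and -0.0044 for GABARAPL1 at 6 h against 2 h. With cyclic loess it was 0.013 for the leading MAP1LC3B and -0.0079 for the second FOXO3 probe set at 24 h against 20 min, -0.0024 for the second MAP1LC3B probe set at 6 h against 20 min and -0.0088 for GABARAPL1 at 6 h against 2 h. With centring on the brightest 10% it was 0.0063 for SQSTM1, 0.022 for the leading MAP1LC3B probe set, 0.0021 for GABARAPL2 and 0.014 for ZFAND5 at 24 h against 20 min. At 24 h against 6 h it was then 0.0045 for SQSTM1 and 0.0026 for the leading MAP1LC3B probe set, with -0.0051 for the second at 6 h against 20 min and -0.0065 for GABARAPL1 at 6 h against 2 h.

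Each pig was left out in turn, and the 20 min array of pig 3, the 2 h array of pig 2 and the 24 h array of pig 1 were each left out as alternatives chosen after seeing the data. In the main fit 7.95%, 8.83% and 13.1% of all probe sets had an unadjusted p under 0.05 at 2 h, 6 h and 24 h against 20 min. The shares with a pig or an array left out are not given here. Members under that threshold numbered 0 to 1 at these times when a pig or an array was left out. These were the leading FOXO3 probe set at 2 h without pig 1 (0.26), the leading FBXO32 probe set at 6 h and 24 h without pig 3 (0.24 and 0.26) and at 24 h without its 20 min array (0.33), the second MAP1LC3B probe set at 24 h without pig 2 (-0.25) and the second FBXO32 probe set without the 24 h array of pig 1 (0.35). Probe sets passing numbered 0 to 3 in the F test, 0 to 1 at 2 h against 20 min, 0 to 2 at 24 h against 20 min and 0 to 9 at 24 h against 6 h. At 2 h against 20 min, the changes ranged from -0.11 to 0.14 and from -0.26 to 0.044 for the leading and second FBXO32 probe sets, from -0.025 to 0.00083 for the second FOXO3 probe set, from -0.012 to 0.078 for SQSTM1, from -0.13 to 0.033 for the leading MAP1LC3B probe set and from -0.17 to 0.32 for GABARAPL1. At 6 h against 20 min they ranged from -0.0096 to 0.27 for the second FBXO32 probe set, from -0.090 to 0.041 for the leading FOXO1 probe set and from -0.010 to 0.031 for SQSTM1. The 6 h range was -0.071 to 0.10 and -0.062 to 0.036 for the leading and second MAP1LC3B probe sets and -0.0089 to 0.23 for GABARAPL1. At 24 h against 20 min they ranged from -0.23 to 0.080 for the leading FOXO1 probe set, from -0.076 to 0.0077 for SQSTM1 and from -0.15 to 0.093 for the leading MAP1LC3B probe set. With the sign kept but a move of over 1.5 times, they ranged from 0.20 to 0.33 and 0.061 to 0.35 for the leading and second FBXO32 probe sets, 0.041 to 0.18 for the second FOXO1, 0.017 to 0.089 for the second FOXO3, -0.25 to -0.018 for the second MAP1LC3B and 0.0081 to 0.23 for GABARAPL1. For pathway genes at 24 h the ranges were -0.052 to 0.0069 for GABARAPL2, -0.014 to 0.077 for PDK4, -0.69 to 0.046 for PPARGC1A, -0.013 to 0.057 for RAB7A and -0.10 to 0.015 for RHEB. They were -0.18 to 0.090 for TXNIP, -0.080 to 0.10 for WIPI1 and -0.083 to 0.054 for ZFAND5. With the sign kept but a move of over 1.5 times, they were -0.34 to -0.12 for CEBPB, 0.099 to 0.27 for LAMP2, 0.062 to 0.20 for RB1CC1, 0.053 to 0.12 for UBE2B and 0.040 to 0.11 for VDAC1. At 6 h against 2 h the ranges were -0.0013 to 0.14 for the second FOXO1, -0.24 to 0.050 for the leading FOXO3, -0.047 to 0.0018 for SQSTM1 and -0.19 to 0.20 for GABARAPL1. At 24 h against 6 h they were -0.10 to 0.24 for the second FBXO32, -0.27 to 0.10 for the leading FOXO1, -0.062 to 0.15 for the leading FOXO3, -0.080 to 0.043 for the leading MAP1LC3B and -0.0062 to 0.049 for GABARAPL1. The second FOXO1 and second FOXO3 probe sets, among the dimmest 40%, have no value in the setting without those probe sets, and with 3 pigs the signs of changes this small are not resolved.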
